A study of Drosophila melanogaster with 3 samples.

Results

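The nuclear genes for the proteins of the mitochondrial ribosome were read for binding by Hybrid male rescue (Hmr) in fly embryos. The members were the protein-coding genes whose symbol starts with mRpL (named for the large subunit) or mRpS (named for the small subunit). There were 73 of them, 47 mRpL and 26 mRpS, among 13945 protein-coding genes on the 6 chromosomes covered. Chromatin immunoprecipitation with sequencing (ChIP-seq) had been done in 3 biological replicates of whole Drosophila melanogaster embryos aged 0 to 24 h, males and females pooled. All came from a transgenic line that stably carries Hmr with green fluorescent protein (GFP) at the C terminus, precipitated with an antibody against GFP, so there was 1 group and no contrast. Whole embryos mix all cell types, and the label names 1 fly line. Fragments spanned 200 to 800 bp after sonication.

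Mitochondrial ribosomes translate the few proteins that the mitochondrial genome encodes, which are subunits of the respiratory chain and of ATP synthase. Their proteins are encoded in the nucleus, made in the cytosol and imported, so their genes have ordinary nuclear promoters. Some of these proteins descend from bacterial ribosomal proteins and others are found in mitochondrial ribosomes only. Hmr is a chromatin protein known for its part in the lethality of species hybrids, and it binds Lhr and HP1 at heterochromatin.

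A gene was counted as bound when a summit, the highest point of a peak, of the optimal list lay within 250 bp of any of its annotated starts. The optimal list holds the 8131 peaks that the authors kept by the irreproducible discovery rate (IDR), which keeps peaks that rank alike across replicates. The signal given for a peak is the value the authors deposited, and it is compared within 1 list only. Ranks count from the strongest entry of a list.

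Long stretches without G or C were not counted over all summits. Within 50 bp, member summits varied from 42.6 to 79.2% in A and T. Sequences at 4 of the strongest member summits, chosen because they hold such stretches, are shown first. They run 60 bases to each side of the summit, 5′ to 3′ on the strand of the gene, in dm6, from the RefSeq Release 6 assembly, with runs of 8 or more A or T in capitals. They lie at chr3R:15229472-15229592 (plus strand), chr2L:4945455-4945575 (minus strand), chr2L:4850511-4850631 (minus strand) and chr3L:4364368-4364488 (plus strand).
mRpS10: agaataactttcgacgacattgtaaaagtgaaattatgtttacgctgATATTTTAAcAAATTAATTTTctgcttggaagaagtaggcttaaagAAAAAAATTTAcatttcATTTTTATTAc
mRpL24: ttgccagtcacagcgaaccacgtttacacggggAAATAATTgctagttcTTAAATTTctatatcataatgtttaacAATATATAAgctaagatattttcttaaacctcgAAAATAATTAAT
mRpS2: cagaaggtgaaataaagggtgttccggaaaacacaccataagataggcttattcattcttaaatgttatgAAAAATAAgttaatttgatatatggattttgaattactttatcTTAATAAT
mRpS6: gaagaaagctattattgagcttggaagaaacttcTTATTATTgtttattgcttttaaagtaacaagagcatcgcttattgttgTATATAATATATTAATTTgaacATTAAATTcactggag

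Shown next are 4 member summits with a nearby match to a consensus sequence known from promoters of housekeeping genes. In mRpL48 and mRpL55 the capitals mark the M1BP motif, GGTCACACT, which lies in mRpL48 on the opposite strand. In mRpL19 and mRpL39 they mark the DNA replication-related element (DRE), TATCGATA. The windows are chr2L:1710420-1710510 (plus strand), chr3R:19094865-19095015 (minus strand), chr3R:8673956-8674106 (plus strand) and chr3L:14999680-14999830 (minus strand).
mRpL48: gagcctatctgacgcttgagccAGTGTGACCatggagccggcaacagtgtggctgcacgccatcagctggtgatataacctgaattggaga
mRpL55: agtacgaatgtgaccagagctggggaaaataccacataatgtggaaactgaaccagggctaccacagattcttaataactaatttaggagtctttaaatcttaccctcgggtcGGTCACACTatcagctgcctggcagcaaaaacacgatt
mRpL19: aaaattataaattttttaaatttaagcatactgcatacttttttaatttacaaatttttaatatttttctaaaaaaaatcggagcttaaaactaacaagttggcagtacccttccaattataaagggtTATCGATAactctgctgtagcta
mRpL39: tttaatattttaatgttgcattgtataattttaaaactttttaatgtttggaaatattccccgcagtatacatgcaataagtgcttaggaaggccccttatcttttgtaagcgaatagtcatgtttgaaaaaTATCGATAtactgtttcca

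For comparison, 4 promoters with a DRE but no optimal summit are given as 250 bases before to 50 after the start, with the DRE in capitals. Homologues of mRpL12 and mRpL10 form the stalk that recruits translation factors in bacteria, the homologue of mRpL4 lines the exit tunnel there, and that of mRpL3 reaches toward the peptidyl transferase centre. They are not all free of Hmr entries, since mRpL4 had an entry at its start in replicates 2 and 3, mRpL10 in replicates 1 and 3 and mRpL12 in replicate 2, while mRpL3 had none in any list. These promoters are chr3L:8956541-8956840 (plus strand), chr2L:203529-203828 (plus strand), chr2L:16329083-16329382 (minus strand) and chrX:15760998-15761297 (plus strand).
mRpL12: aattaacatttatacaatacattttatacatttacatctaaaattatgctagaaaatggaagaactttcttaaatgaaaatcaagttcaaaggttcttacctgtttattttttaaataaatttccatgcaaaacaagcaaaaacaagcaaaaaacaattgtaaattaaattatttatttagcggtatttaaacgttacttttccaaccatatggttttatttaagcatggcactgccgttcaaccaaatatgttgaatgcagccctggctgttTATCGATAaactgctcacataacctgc
mRpL10: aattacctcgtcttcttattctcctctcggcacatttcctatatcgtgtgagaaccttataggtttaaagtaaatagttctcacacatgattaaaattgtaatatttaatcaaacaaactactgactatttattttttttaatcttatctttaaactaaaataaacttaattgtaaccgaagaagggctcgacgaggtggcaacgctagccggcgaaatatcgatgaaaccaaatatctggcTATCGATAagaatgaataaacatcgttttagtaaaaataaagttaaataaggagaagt
mRpL4: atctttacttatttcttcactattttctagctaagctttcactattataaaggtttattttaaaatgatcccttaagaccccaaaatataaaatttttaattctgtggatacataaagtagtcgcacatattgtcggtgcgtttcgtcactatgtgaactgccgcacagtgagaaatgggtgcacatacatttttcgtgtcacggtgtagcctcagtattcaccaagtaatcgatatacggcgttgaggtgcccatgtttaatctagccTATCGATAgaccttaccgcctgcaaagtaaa
mRpL3: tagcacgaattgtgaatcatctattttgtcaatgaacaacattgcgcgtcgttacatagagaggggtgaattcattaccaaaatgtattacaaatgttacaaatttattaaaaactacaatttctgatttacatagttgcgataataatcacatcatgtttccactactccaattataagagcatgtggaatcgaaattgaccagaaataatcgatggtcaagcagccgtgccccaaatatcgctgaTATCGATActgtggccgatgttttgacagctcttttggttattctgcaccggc

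Of the 73 members, 30 had an optimal summit at a start and 43 did not. That is 41.1% of the members (exact 95% interval 29.7 to 53.2, counting error only), against 23.4% of all protein-coding genes. The 30 members held 30 distinct summits, so no pair of members shared one. When each summit was given only to the gene with the nearest start, 17 members (23.3%) remained, against 19.6% of all protein-coding genes. Thus 13 of the 30 counted through a summit that was nearer to another gene's start.

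Head-to-head neighbours were frequent among these genes. A protein-coding gene on the opposite strand started within 500 bp upstream of 53 members (72.6%), against 27.4% of all protein-coding genes. Among the 53 members with such a partner, 27 (50.9%) had a summit, against 39.2% of all genes with a partner. Among the 20 members without one, 3 had a summit (15.0%), against 17.4% of all genes without a partner. These 3 were mRpL13, mRpL19 and mRpL41. Own starts were nearest to the summit in 14 of the 53 members with a partner (26.4%), against 26.1% of all genes with a partner. The higher share among the members was therefore seen beside a higher share of head-to-head promoters, and the part of that arrangement in it was not tested. Replicate 3 was also left out of the matching, by keeping only the optimal peaks matched in replicates 1 and 2. Its reads are still in the pooled peaks. In this setting 27.4% of all members had a summit, against 16% of all protein-coding genes. The members with a partner and a summit then numbered 17 and those with the nearest start 10. For these last 2 counts the share over all genes was not computed in this setting.

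**Figure D1:**
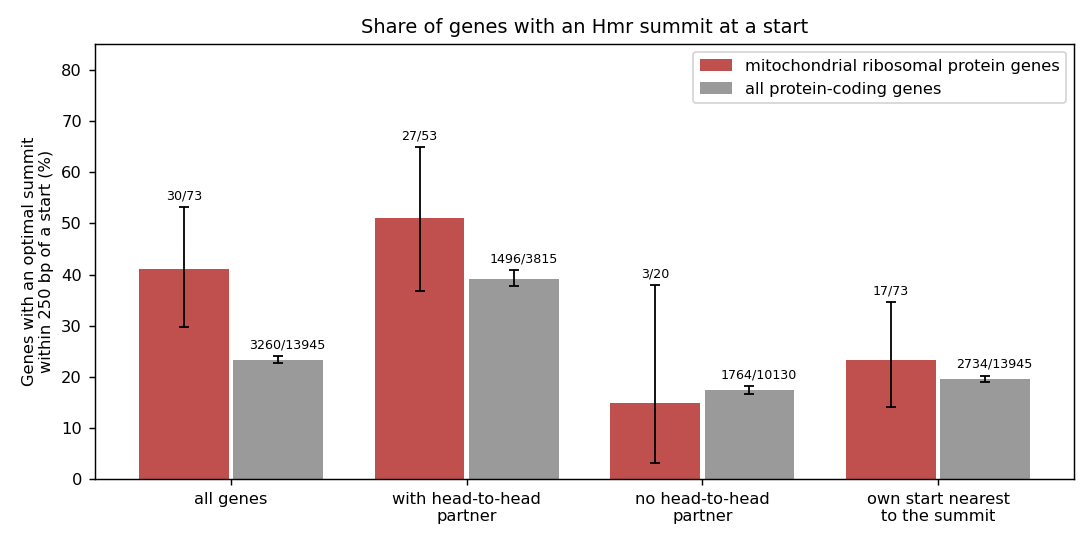
Percentage of genes with an optimal Hmr summit within 250 bp of a start, for the mitochondrial ribosomal protein genes (red) and all protein-coding genes (grey), with gene counts above the bars. Error bars are exact 95% intervals. The members stood at 41.1% against 23.4% over all genes, and at 23.3% against 19.6% when only the nearest start was counted.

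The mRpL and mRpS genes, split by symbol only, were bound in like shares, with 19 of 47 (40.4%) and 11 of 26 (42.3%). Members whose number is up to 36 (large) or 21 (small), together with mRpS28, mostly follow the numbering of bacterial ribosomal proteins, and 21 of these 43 (48.8%) had a summit. Of the 30 with higher numbers, 9 had one (30%). No test was made between these groups, and symbols only approximate the subunit and the origin of a protein. By chromosome, a summit was found at 7 of 12 members on 2L (58.3%, against 22.9% of all protein-coding genes there) and 5 of 12 on 2R (41.7%, against 23.6%). On 3L it was 8 of 17 (47.1%, against 24.8%) and on 3R 10 of 21 (47.6%, against 23.8%). None of the 11 members on X did, against 21.9% of all protein-coding genes of X, although 7 of the 11 had a partner. No entry in the pooled list or in any replicate lay at 8 of those 11 starts. Over all chromosomes, this held for 47.7% of protein-coding genes. Neither this share nor that of genes with a partner was computed for X alone. With only 11 members there, these counts are not shown to be particular to X.

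The strongest member site lay at mRpL41, a large-subunit protein, which had no head-to-head partner. Its peak on 2R from 15217563 to 15217956 had a signal of 3489 and ranked 13 of all optimal peaks. In replicates 1, 2 and 3 its signal was 806, 1396 and 1319, at ranks 37, 9 and 9. The summit lay 134 bp upstream of mRpL41 and no other protein-coding start was within 250 bp of it. It was thus among the strongest sites of every replicate.

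Next came mRpS10, whose homologue sits in the head of the bacterial small subunit, with a peak on 3R from 15229315 to 15229760. Its optimal signal was 3197, rank 23. Replicates 1, 2 and 3 gave 820, 1269 and 1129 at ranks 35, 16 and 23. The summit lay between mRpS10, at 133 bp, and Art3, which encodes an arginine methyltransferase, at 124 bp, so it was almost midway.

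The homologue of mRpL23 lies at the mouth of the exit tunnel in bacteria. The peak at mRpL23 on 3L from 2373415 to 2373799 had a signal of 2045 and rank 89, with 479, 873 and 714 in replicates 1, 2 and 3. This summit lay 81 bp inside the gene, downstream of its nearest start, and 131 bp from the start of CG9004. Most other member summits lay upstream.

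Further strong sites lay between a member and its partner. The summit of mRpL24, whose homologue starts the assembly of the large subunit in bacteria, had a signal of 1394 at rank 234, and 382, 505 and 510 in replicates 1, 2 and 3. It was nearer to betaggt-I, a subunit of a protein prenylation enzyme, at 64 bp, than to mRpL24 at 154 bp. The summit of mRpS2 had a signal of 1306 at rank 274, and 346, 456 and 499 in replicates 1, 2 and 3, and lay 70 bp from Mon1, a gene for vesicle traffic, and 152 bp from mRpS2. In mRpS6, with 676 at rank 1003, and 184, 282 and 200 in the replicates, the summit stood alone at 122 bp. Replicate 1 had the lowest signal of the 3 at each of mRpL41, mRpS10, mRpL23, mRpL24, mRpS2 and mRpS6, but signals of separate lists are not on 1 scale, and the depth is not known.

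Of the next sites, 5 lay beside partners with known roles. The mRpL53 summit, with a signal of 551 and 134, 170 and 236 in replicates 1, 2 and 3, lay 139 bp from AGO1, the argonaute of the microRNA pathway, and 31 bp from both mRpL53 and CG33155. The mRpL34 summit, at 541 and 106, 204 and 229, was 174 bp from Dg, which encodes dystroglycan, and 210 bp from mRpL34. The mRpS7 summit, at 423 and 110, 154 and 153, was 170 bp from mRpS7 and 230 bp from Cdk1, the kinase that drives entry into mitosis. All 5 of these sites, mRpL21 and mRpS16 below included, were matched in every replicate. The mRpL21 summit, at 422 and 111, 143 and 163, lay only 58 bp from rept, which encodes the Reptin ATPase, and 221 bp from mRpL21. The mRpS16 summit, at 410 and 67.8, 107 and 209, lay 32 bp from cg, which encodes the zinc-finger protein Combgap, and 65 bp from mRpS16. In both of these the partner was the nearer gene.

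Of similar strength were mRpL47 and mRpL13. The mRpL47 summit had a signal of 622 and 150, 186 and 277 in replicates 1, 2 and 3, and lay 26 bp from the starts of CG8176 and the histone demethylase gene Kdm3, and 73 bp from that of mRpL47. The mRpL13 summit had 483 and 117, 132 and 231, and lay 103 bp from a start that mRpL13 has in common with CG10602. Partners that encode mitochondrial proteins were not counted among pairs without a summit or over all genes. No link of such partners to summits is thus shown. Some partners at weaker sites are themselves genes for mitochondrial proteins. These were Taz beside mRpL18 (signal 371), which encodes the cardiolipin-remodelling enzyme tafazzin, HtrA2 beside mRpL11 (319), a protease, ATPsynD beside mRpL55 (213), an ATP synthase subunit, and Mitofilin beside mRpL35 (191), of the inner membrane.

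Over all 30, signals ran from 160 at mRpL2 to 3489 at mRpL41 with a median of 360, against a median of 328 over the 2644 summits at protein-coding starts. The median of the whole optimal list was 276, and 19 of the 30 lay above it. These 19 were 26% of the members, against 15.2% of all protein-coding genes with such a summit. With any optimal summit the shares were 41.1% and 23.4%, so above-median peaks made up a like part of both. Of the 30 summits, 22 lay within 250 bp of the start of another protein-coding gene, and 21 of those had one on the opposite strand. The other 8 were at mRpL41, mRpS6, mRpL1, mRpS31, mRpS22, mRpL19, mRpL17 and mRpS26. The same share was not computed over the 2644 summits at protein-coding starts, so sharing is not shown to be particular to the members. Upstream placement held for 27 of 30 (90.0%), against 83.3% of all protein-coding genes with a summit. The median position was 106 bp upstream, against 86 bp upstream over all, and ran from 221 bp upstream at mRpL21 to 81 bp inside mRpL23. The members just inside the limit of 250 bp were mRpL21, mRpL11 and mRpL34, at 221, 211 and 210 bp. Of these, mRpL11 and mRpL34 had no entry within 250 bp of the start in replicate 1. At mRpL34 the replicate 1 signal of 106 came from an entry within 200 bp of the summit but farther from the start. The mRpL11 signals were 97.3 and 145 in replicates 2 and 3.

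A summit was matched in a replicate when an entry among that list's 8131 strongest lay within 200 bp. All 3 replicates matched 20 of the 30 (66.7%), against 64.1% of all summits at protein-coding starts. A further 9 were matched in 2 replicates and mRpL2, whose homologue lies near the peptidyl transferase centre in bacteria, in 1 only. Those 9 include mRpL17 and mRpS26, where 1 of the matches may belong to a neighbouring peak. In the full lists of 30000 entries, 26 were matched in all 3. The remaining 4 lacked 1 replicate, which was replicate 1 for mRpL11, mRpS11 and mRpL35 and replicate 2 for mRpL48. None of these 4 was among the 12 strongest. At mRpL2 the signals were 40.6, 29.3 and 76.6 in replicates 1, 2 and 3, at ranks 12347, 15394 and 6440.

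Among the weaker sites, 11 lay nearest to the member's own start. In replicates 1, 2 and 3 the signals were 123, 119 and 171 at mRpL1, whose homologue forms the side stalk of the bacterial large subunit. They were 103, 104 and 132 at mRpS31, and 60.04, 106 and 130 at mRpS22. These summits, with optimal signals of 403, 349 and 302, were within the strongest 8131 entries of every replicate. At mRpS18B the replicates gave 55.3, 76.8 and 116, and at mRpL55 they gave 39.0, 69.3 and 99.9. At mRpL39 they gave 44.8, 65.1 and 81.4, beside the proteasome gene Prosbeta2 at 196 bp. Replicate 1 fell below rank 8131 at each of mRpS18B, mRpL55 and mRpL39. At mRpL19 the signals were 59.6, 57.1 and 82.3, and all were inside that limit. At mRpL17 they were 41.2, 73.7 and 32.1, and at mRpS26 they were 65.3, 29.1 and 50.2, and of these nearest entries only that of replicate 2 at mRpL17 and that of replicate 1 at mRpS26 were inside the limit. Each of these 2 genes had its other match through a stronger entry that was not the nearest. At mRpS26 that entry, in replicate 3, had 185 at rank 1752 and lay 231 bp from the start. At mRpL17 it lay more than 250 bp from the start. The stronger summit of the head-to-head pair lay 256 bp from mRpS26 and 337 bp from mRpL17. These matches may thus belong to that other peak, which was not tested. At mRpL48 replicates 1 and 3 gave 89.0 and 114.9, and at mRpS11, beside the nucleolar GTPase gene Ns1, replicates 2 and 3 gave 63.1 and 145.

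**Figure D2:**
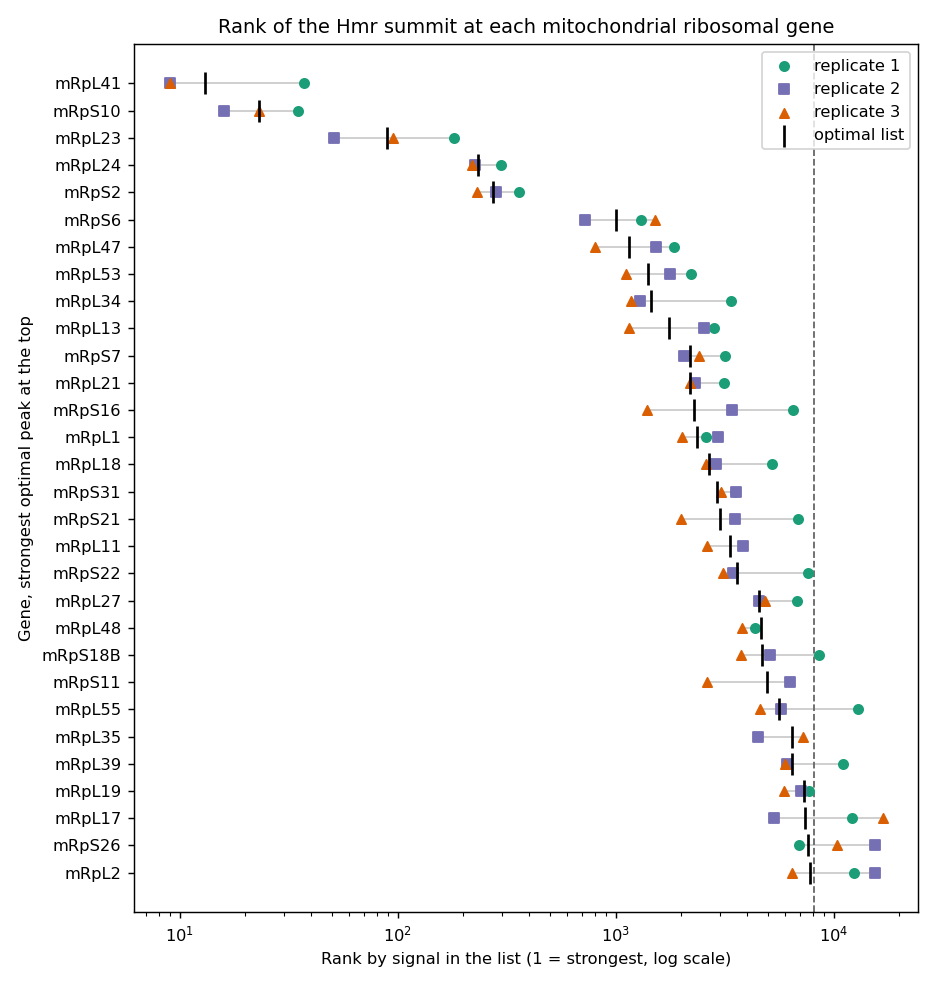
Rank of the entry nearest to each of the 30 member summits in the full list of each replicate (log scale, stronger toward rank 1), with genes in the order of optimal signal. Black bars give the rank in the optimal list, the dashed line is rank 8131, and a missing point means no entry within 200 bp. The 5 strongest genes stood within rank 360 in every replicate, and the weakest scattered across the line.

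In the full lists, starts with an entry numbered 34 of 73 members in the pooled list (46.6%), against 36.3% of all protein-coding genes. In replicate 1 they numbered 31 (42.5%, against 35.8%), in replicate 2 they numbered 41 (56.2%, against 36%), and in replicate 3 they numbered 45 (61.6%, against 43.0%). The share of members was above that of all genes in each list. Entries in all 3 replicates were found at 28 members (38.4%), against 24.5% of all protein-coding genes. No entry in any of the 4 lists was found at 24 members (32.9%), against 47.7% of all protein-coding genes.

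Distances to the nearest optimal summit were read for the 43 members without one at a start. They were not computed over other protein-coding genes, so they are not shown to be particular to the members. The nearest optimal summit was 267 to 388 bp away at 5 of the 43 members, 1000 to 5000 bp at 17 and farther at 21. The median was 4506 bp and the greatest distance was 36254 bp at mRpL37. Those 5 had a head-to-head partner whose own start lay within 250 bp of the summit. They were mRpS17 beside Nop60B, at 267 bp, mRpS24 beside Apc2, at 274 bp, mRpL20 beside Icmt, at 280 bp, mRpL33 beside norpA, at 325 bp, and mRpS23 beside CenG1A, at 388 bp. The site between mRpS23 and CenG1A, a gene for an Arf GTPase-activating protein, had a signal of 3399 and ranked 15, so it was among the strongest in the list. At the starts of these 5 members no replicate had an entry, except at mRpS24, with 112 at rank 3219 in replicate 2. Icmt, which encodes a carboxyl methyltransferase, had 1084 at rank 393.

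In 4 of the members without an optimal summit a weaker pooled entry was present. That of mRpL50 had a signal of 153 and ranked 8193, just below the 8131 kept, with 57.1, 58.6 and 42.3 in replicates 1, 2 and 3. Those of mRpL22, mRpS18A and mRpS5 ranked 12162, 13114 and 19544. Among the 24 members with no entry in any list were mRpL3 and mRpS29, which is the homologue of the GTP-binding protein DAP3.

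Strong entries without a pooled one were also seen. A start had an entry within a replicate's 8131 strongest, but no pooled entry within 500 bp, in 8 members (11.0%), against 5.44% of all protein-coding genes. In 3 members (4.11%) this held in at least 2 replicates, against 2.07% of all. At mRpL4 the entry had a signal of 147 at rank 2194 in replicate 2 and 137 at rank 2889 in replicate 3. At mRpL16 it had 118 at rank 2772 in replicate 1 and 148 at rank 2555 in replicate 3, and at mRpL10 it had 65.3 at rank 6887 and 84.5 at rank 5751 in the same replicates. The remaining 5 were mRpL32, mRpL37, mRpL51, mRpL54 and mRpS18C, each in 1 replicate. Why the pooled list lacks these entries was not tested.

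Among the 53 head-to-head pairs, a summit lay between the starts or within 250 bp of either in 32, and the strongest of these was taken for each pair. It lay between the starts in 26, inside the member in 3 and inside the partner in 3. The partner's start was nearer in 20 pairs and the member's in 12. In 23 pairs the member and the partner each had a summit within 250 bp, in 4 only the member did (mRpL1, mRpS6, mRpS22 and mRpS31), and in 5 only the partner did. In those 5 the partner had to be the nearer gene, since the summit lay over 250 bp from the member. The same counts were not made over all head-to-head pairs, so they are not shown to be particular to the members. At mRpL17 and mRpS26 the strongest summit of the pair lay 337 and 256 bp away, and each had a second, weaker summit of its own, with signals of 168 and 164. The median distance between the starts of a pair was 264 bp, from 20 to 499 bp, against 244 bp over all protein-coding genes with a partner.

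**Figure D3:**
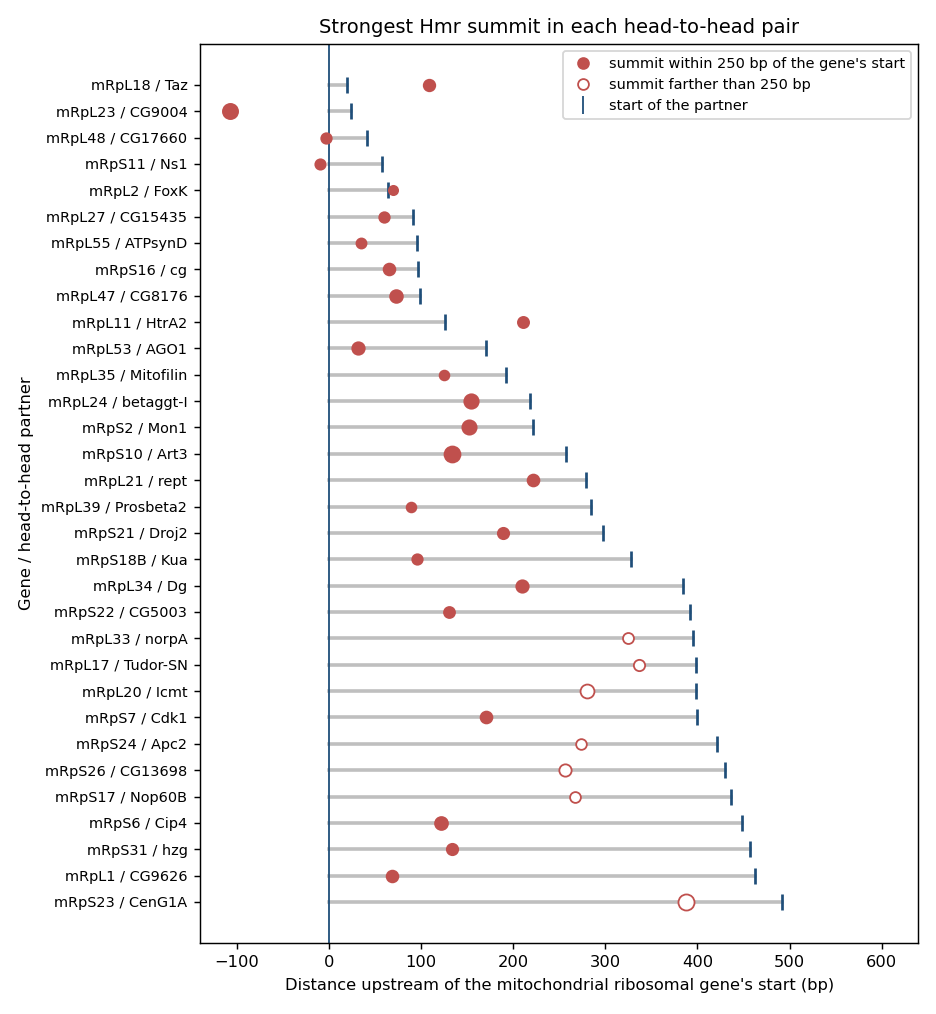
Position of the strongest summit in the 32 head-to-head pairs that had one, in bp upstream of the mitochondrial ribosomal gene's start at 0, with the partner's start as a bar and dot area growing with log signal. Open dots lie more than 250 bp from the member. Of the 32 summits, 26 lie between the starts, and 20 are nearer to the partner. The same counts were not made over all head-to-head pairs.

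Base composition was read around the summits. Within 50 bp of the summit, A and T made up a median of 67.8% at the 30 member summits (42.6 to 79.2%), against 60.4% at the 2644 summits at protein-coding starts. Among the summits in the strongest 10% of the optimal list, the median was 74.3% at the 5 of members and 68.3% at all 412. Below that, it was 62.4% at the other 25 member summits and 59.4% at the other 2232 summits, a smaller difference. The promoters themselves had a median of 65.5% in members with a summit and 65.3% in members without, against 62.0% over all promoters. The medians of members with and without a summit were thus close. No test was made of these values.

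Consensus sequences were counted in promoters of 300 bases, on both strands. Where a partner starts within 250 bp upstream, this window also holds the partner's start. A partner within 500 bp was present for 72.6% of members, against 27.4% of all protein-coding genes. No motif share was computed among genes with a partner only. The DRE occurred in 15 members (20.5%), against 9.23% of all promoters. It was in 4 of the 30 members with a summit (13.3%) and 11 of the 43 without (25.6%), mRpL12, mRpL10 and mRpL4 included. The M1BP motif was in 8 members (11.0%), 6 of which had a summit, against 6.07% of all promoters. GAGAG occurred in 11 members (15.1%), against 30.2% of all promoters. The Ohler 7 consensus was in 16 members (21.9%), against 9.43%, and the Ohler 6 consensus in 3 (4.11%), against 2.23%. The core CGATA of the insulator protein BEAF-32, which lies within every DRE, was in 58.9% of members, against 47.5%. An E-box, CACGTG, was in 5 members (6.85%), against 4.2%, and the core of the NRF-1 consensus, known in mammals from genes of mitochondrial proteins, was in 0, against 0.222%.

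Around the summits themselves, within 100 bp, a DRE was at 3 of the 30 member summits (10%), against 8.85% of the 2644 at protein-coding starts. M1BP was at 4 (13.3%), against 6.77%, and GAGAG at 2 (6.67%), against 23.0%. The M1BP motif was nearest to the summit at mRpL48, at 19 bp, then mRpL55 at 42 bp, mRpS16 at 50 bp and mRpL27 at 91 bp. A DRE lay 56 bp from the summit at mRpL19, 60 bp at mRpL39 and 94 bp at mRpS18B. Most member summits therefore had neither sequence within 100 bp. A match describes the letters and does not show that a factor binds.

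**Figure D4:**
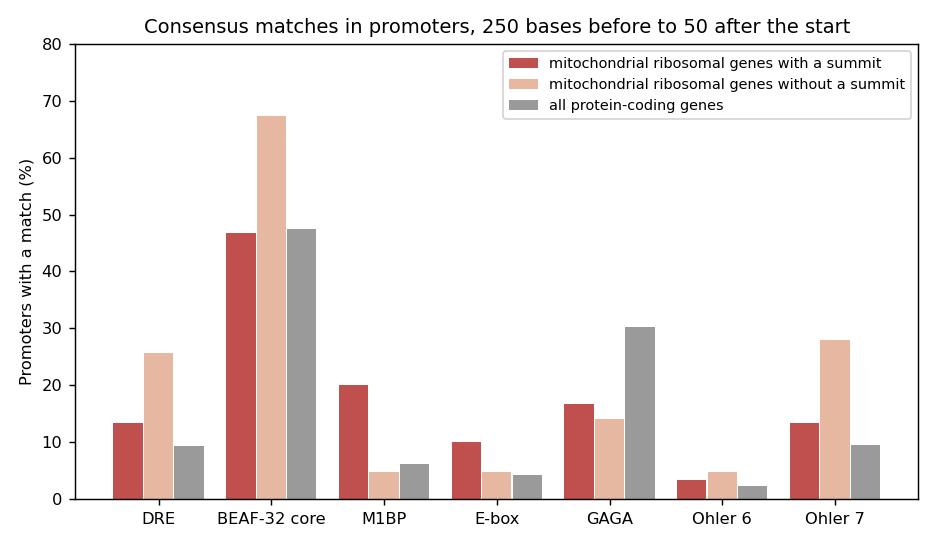
Share of promoters of 300 bases that hold each consensus sequence, for members with a summit, members without one and all protein-coding genes. The DRE stood at 13.3%, 25.6% and 9.23% in these groups, and M1BP at 20.0%, 4.65% and 6.07%. The NRF-1 core, found in 0 members, is not drawn.

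Other genes for mitochondrial gene expression were read in the same way. Of 32 listed, 29 were found in the annotation, 2 of them by synonym, and 9 (31.0%) had a summit, against 23.4% of all protein-coding genes. With so few genes that share is near the background. The strongest were SLIRP2 at 1869 and SLIRP1 at 759, RNA-binding proteins of mitochondrial mRNA, then RNaseZ, a tRNA-processing enzyme, at 457. By group, 3 of 8 genes for RNA processing, 3 of 7 for transcription and rRNA methylation, 2 of 8 for translation factors and 0 of 4 for replication of mitochondrial DNA had a summit, each group being too small to set against that background. The remaining genes were 2 mitochondrial ribosomal proteins with symbols of another form, of which tko, on X, had a summit with a signal of 281 and bonsai had none.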

How the data were processed

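Peak lists from ChIP-seq of Hmr-GFP in 3 biological replicates of fly embryos were used in build dm6. The authors deposited relaxed lists of peaks and background for each replicate and for the replicates pooled, each of 30000 entries, and the optimal list of 8131 peaks kept by IDR, per the deposited text files. The authors' signal value of each peak (column 7 of the deposited lists) depends on depth, which is unknown because no read counts are given. Summits were taken from deposited column 10, an offset from the peak start. Which peak caller, aligner and IDR threshold were used is not given in the sources used here. The lists in build dm3 were not used here.

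Gene models came from Ensembl release 115 (18164 genes on 6 chromosomes, of which 13945 are protein-coding) and sequence from the RefSeq Release 6 assembly. Every peak lay within that assembly's chromosome lengths. Starts were all annotated transcript starts, a summit counted within 250 bp, and a partner was a protein-coding gene on the opposite strand starting within 500 bp upstream. Entries were matched to optimal summits within 200 bp, and the replicate values given are those of the nearest entry. Intervals are exact Clopper-Pearson 95% intervals and cover counting error only. With 1 group, no test was run. Counts and medians are set beside those over all protein-coding genes. Values by replicate are named for about the 12 strongest members, the members just inside and outside the window, those whose own start was nearest, and those with the strongest pooled entry but no optimal summit. The members, gene lists and motifs were chosen with earlier results of these data known. Alternatives were windows of 100, 500 and 1000 bp, stricter peak sets, overlap by 1 bp, the pooled list, partners within 250 bp and leaving out each replicate, by keeping the optimal peaks matched in the other 2. Scripts used Python 3.11.15, pandas 2.3.3, numpy 2.4.6 and scipy 1.17.1, and were tested on simulated data.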

Additional observations from a re-analysis of the deposited data

How the results depend on the processing

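The members with a summit numbered 30 as reported (41.1%, against 23.4% of all protein-coding genes). They numbered 35 (47.9%) in windows of both 500 and 1000 bp, against 28.1% and 31.8% of all protein-coding genes. Only 14 (19.2%, against 13.4% of all protein-coding genes) had a summit within 100 bp. There the distinct summits were also 14, those with a partner 13, those with the nearest start 10 and the median signal 247. With optimal peaks above the median signal only, 19 members (26%, against 15.2%) and 19 summits remained, 17 of them with a partner. With peaks matched in all 3 replicates only, 20 members (27.4%, against 15.5%) had a summit, 17 of them with a partner. Counting a summit only for its nearest start left 17 members (23.3%, against 19.6%), and a partner within 250 bp left 14 members with partner and summit. Without each replicate in turn, which here means keeping the optimal peaks matched in the other 2 replicates and not calling peaks anew, members and distinct summits numbered 20 to 27, members with partner and summit 17 to 24, members with the nearest start 10 to 15 (an alternative added after the data were seen), the median signal was 403 to 453, and the share upstream 90.9 to 95%. Without replicates 1, 2 and 3 in turn, 37%, 30.1% and 27.4% of members had a summit, against 18.5%, 18.2% and 16% of all protein-coding genes. The share of all members exceeded that of all protein-coding genes in each of these settings where both were computed. The settings reuse the same peaks, and none held the head-to-head arrangement fixed. Without a partner, the share was 15.0% of members against 17.4% of all such genes. With a partner, the own start was nearest in 26.4% against 26.1%. On X it was 0% of members against 21.9%. The cause of the changes between settings was not tested. No paired analysis was possible because there is 1 group. Depth is unknown, so no limit of detection can be given.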
